A study of Mus musculus with 10 samples.

Results

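The genes described here are 38 imprinted genes of the mouse, chosen by name from a list of imprinted loci and followed through the RNA of germinal vesicle (GV) oocytes. They make up 38 of the 24453 gene symbols in the table, and 76 of its 34768 transcript records. The study collected GV oocytes, the fully grown oocytes arrested before meiotic maturation, with their follicle cells removed, and each library came from a pool of 16 oocytes of 1 mouse on the C57Bl/6J background, isolated in medium with 2.5 mM milrinone, a phosphodiesterase inhibitor that holds the oocytes at this stage. The mutant group was Setdb1 F/-; ZP3-cre (4 libraries), in which the floxed Setdb1 allele is exposed to a Cre driven by the oocyte promoter of Zp3 while the other allele is null. Controls were Setdb1 F/+; ZP3-cre (4 libraries), which carry the Cre and a wild-type allele, and Setdb1 F/- (2 libraries), which carry the same Setdb1 alleles as the mutant without Cre. Every group, controls included, carried at least 1 floxed allele. The ages of the mice were not given in the sources used here. Below, these groups are called mutant oocytes, Cre-carrying controls and controls without Cre. Replicates were separate mice.

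Imprinted genes are expressed mainly from the maternal or the paternal copy, and the choice is set by DNA methylation laid down at control regions in the growing oocyte or in sperm. A smaller class is marked in the oocyte by H3K27me3 in place of DNA methylation. SETDB1 places H3K9me3, and in embryonic cells it acts with TRIM28 and zinc finger proteins such as ZFP57, which bind methylated imprint control regions and keep the marked copy methylated. The oocyte holds only maternal genomes, so its RNA shows which imprinted genes are transcribed from chromosomes that carry, or are acquiring, the maternal mark.

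Setdb1 itself stood at 1.31 to 4.06 RPKM (reads per kilobase of transcript, scaled to the size of the library) in mutant oocytes and at 19.9 to 52.5 RPKM in controls, with no overlap (log2 difference -3.20; exact two-sided permutation test, p = 0.0048, the smallest that 4 against 6 libraries allow). The libraries were estimated at about 45800000 to 72800000 reads, so that 10 reads on a 2 kb transcript correspond to 0.109 RPKM in the shallowest. All 10 oocyte markers were present, with a summed level of 5856 to 6045 RPKM in mutant oocytes and 5769 to 7651 RPKM in controls. Of the granulosa and cumulus markers, 7 of 12 averaged over 0.5 RPKM, with sums of 78.1 to 112 RPKM in mutant oocytes and 75.9 to 103 RPKM in controls. Most of each sum was Serpine2, with 65 ± 9.81 RPKM in mutant oocytes and 66 ± 11.7 RPKM in controls. In pooled RNA, fewer cells of a type and less RNA per cell cannot be told apart.

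A mean of 0.5 RPKM over the 10 libraries was reached by 19 of 38 genes (50%), beside 46.4% of all symbols. The detected genes had a median level of 2.96 RPKM, against 6.06 RPKM over all 11338 symbols that reached the same mean. Mest was far above the others, 5 genes were over 5 RPKM, 11 lay between 1 and 5 RPKM and 3 were below 1 RPKM. Of the 19, 10 genes reached 0.5 RPKM in every library. Dio3 lay just inside the limit at 0.507 RPKM and Sgce just outside it at 0.432 RPKM.

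Detection was counted by class of control region. Among genes whose control region is methylated in the oocyte, 17 of 28 were detected (60.7%), and among those whose control region is methylated in sperm, 2 of 8 (25%), which were Igf2 and Dio3. The count pools genotypes: Dio3 was below 0.5 RPKM in every control library and Igf2 in every mutant library. Neither of the 2 genes marked by oocyte H3K27me3, Slc38a4 and Sfmbt2, reached the limit. Of genes expressed from the maternal copy in offspring, 8 of 13 were detected, and of genes expressed from the paternal copy 11 of 25 (44%). These are descriptions of the list, without a test, and they count symbols, whichever transcript record stood for them. Mest, Usp29, Peg3 and Snrpn, which offspring express from the paternal copy, were among those detected.

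**Figure D1:**
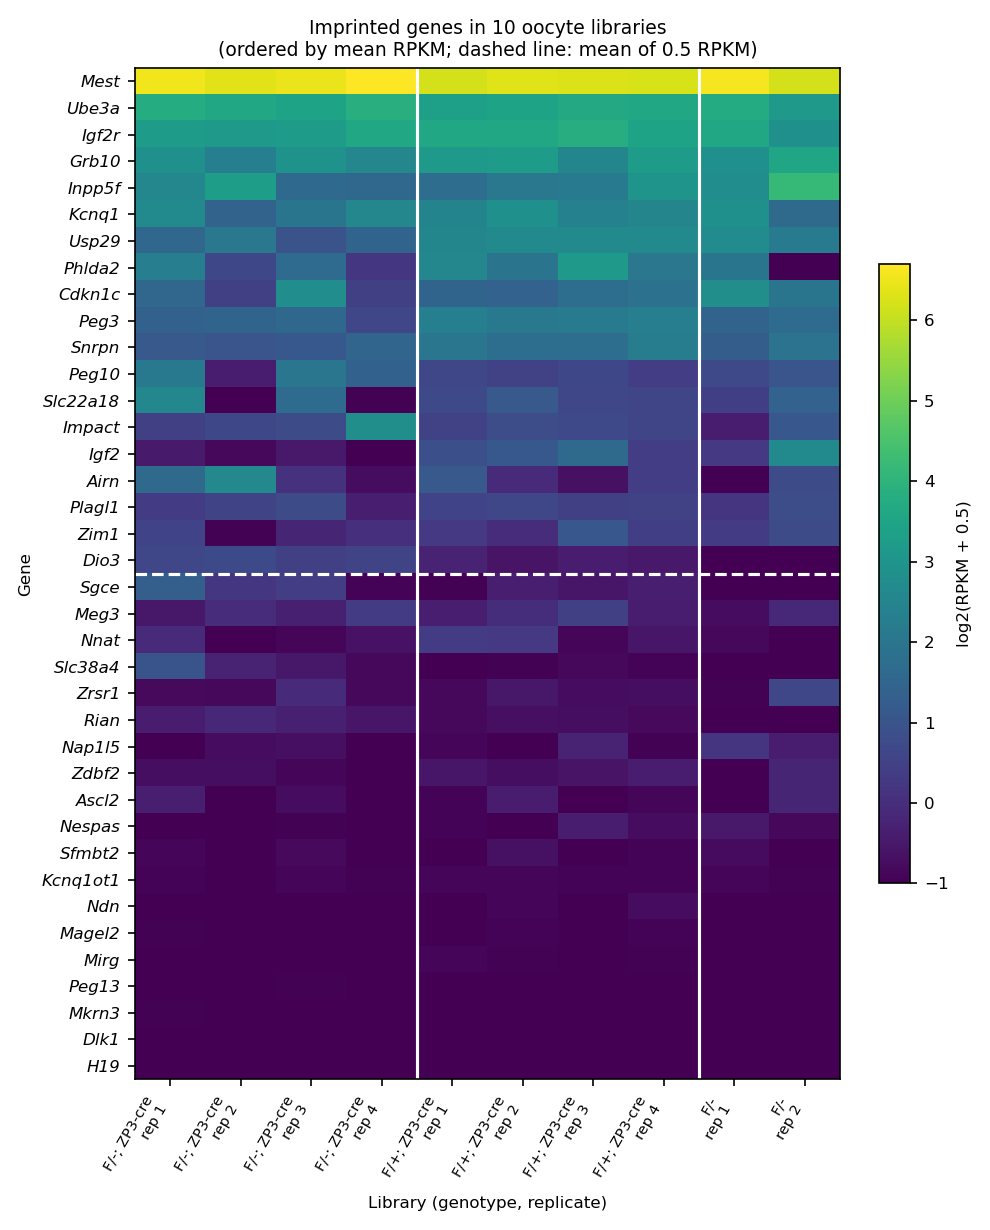
Level of each of the 38 imprinted genes (rows, in order of mean level) in each of the 10 libraries (columns, mutant oocytes at the left, then Cre-carrying controls, then controls without Cre), as log2(RPKM + 0.5) in colour. Mest stands at the top at 72.9 to 105 RPKM, and the 19 genes in the lower part average below 0.5 RPKM.

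Between mutant oocytes and all 6 controls, 1 of the 19 detected genes was higher and 2 were lower (limma on log2(RPKM + 0.5), Benjamini-Hochberg adjustment over all 11338 genes, threshold 0.05). Over all genes tested, 3.1% were higher and 2.22% lower, 5.33% in all. Dio3, which encodes the deiodinase that inactivates thyroid hormones, was the higher one. It passed the filter on low values only through the mutant libraries, so the count in this direction is a description. Igf2, a fetal growth factor, and Usp29, a member of the ubiquitin-specific protease family transcribed away from Peg3, were lower. Igf2 passed the filter only through the control libraries, with a mutant mean of 0.126 RPKM, so its place in the lower count is also a description. The same 3 genes were the only detected members whose mutant values all lay on one side of all control values, a pattern seen in 8.18% of all genes tested (4.62% higher and 3.56% lower). Of the 19 log2 differences, 13 were negative and 6 positive, with a median of -0.28 beside 0.03 over all genes tested. At an unadjusted p below 0.05 stood 5 of the 19 members (26.3%), beside 19.8% of all genes tested.

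**Figure D2:**
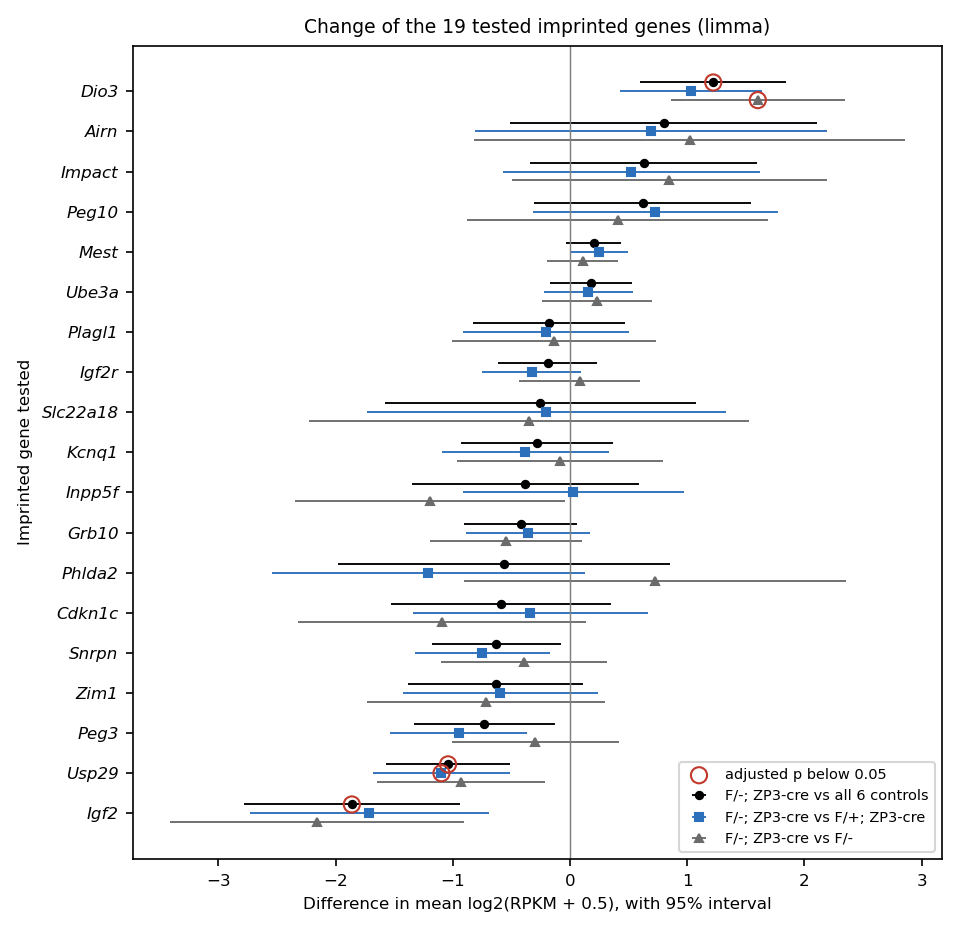
Log2 difference of log2(RPKM + 0.5), mutant oocytes minus all controls (black circles), minus Cre-carrying controls (blue squares) or minus controls without Cre (grey triangles), for the 19 imprinted genes that were tested; bars are 95% confidence intervals from limma and red rings mark an adjusted p below 0.05. Against all controls the rings fall on Dio3 at 1.22, Usp29 at -1.04 and Igf2 at -1.86.

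Igf2 is expressed from the paternal copy in offspring, under a control region methylated in sperm that it shares with the noncoding RNA gene H19. It lies on the minus strand of chromosome 7 at 142650766 to 142666816 (GRCm38). RefSeq gives 4 start windows of 300 bases, from 250 bases before to 50 after a start. The 2 shown are the most CpG-rich of them and the one furthest downstream, with CG in capitals, 5′ to 3′ on the minus strand (GRCm38.p6, from RefSeq). Windows were matched by gene, not by transcript record. They show how unlike the starts are, with 24 and 7 CG pairs; the other windows hold 14 and 2.
Igf2 window at chr7:142658755-142659054: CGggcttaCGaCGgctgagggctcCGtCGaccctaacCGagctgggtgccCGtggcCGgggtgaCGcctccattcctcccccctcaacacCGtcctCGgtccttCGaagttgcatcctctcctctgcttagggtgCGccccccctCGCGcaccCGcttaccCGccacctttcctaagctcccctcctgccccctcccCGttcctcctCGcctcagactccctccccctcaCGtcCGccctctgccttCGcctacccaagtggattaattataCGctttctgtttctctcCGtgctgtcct
Igf2 window at chr7:142657447-142657746: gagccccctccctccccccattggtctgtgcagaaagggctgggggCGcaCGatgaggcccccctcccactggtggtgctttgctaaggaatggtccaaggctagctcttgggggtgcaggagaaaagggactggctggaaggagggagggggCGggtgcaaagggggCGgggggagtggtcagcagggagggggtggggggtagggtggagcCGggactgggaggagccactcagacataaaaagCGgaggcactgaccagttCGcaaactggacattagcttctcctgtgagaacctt

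Igf2 RNA was listed at 0.233, 0.0577, 0.214 and 0 RPKM in mutant oocytes, against 1.34, 1.67, 2.66 and 0.828 RPKM in Cre-carrying controls and 0.72 and 5.75 RPKM in controls without Cre. Every mutant library was below every control library, and the 2 controls without Cre were far apart. The means were 0.126 ± 0.115 RPKM in mutant oocytes and 2.16 ± 1.89 RPKM in controls (SD, n = 4 and 6), a log2 difference of -1.86 (SE 0.43, 95% interval -2.78 to -0.94, limma adjusted p = 0.0223). For the record used, these levels correspond to about 0 to 53 reads per mutant library and 122 to 1553 reads per control library. All 5 RefSeq records of Igf2 were lower, with log2 differences of -1.86 to -1.40, and none overlapped between mutant and control libraries. Exons of Igf2 overlap those of Igf2os on the opposite strand and Gm49394 on the same strand. The library kit is not stated to keep strand, so reads in these overlaps cannot be assigned. The record used gave the largest difference. Its 0 in mutant replicate 4 was not shared by the other records, which stood at 0.364 to 0.498 RPKM there, the highest mutant value of each. Igf2 passed the filter on low values only through the control libraries. The call was lost with a pseudocount of 2 RPKM (adjusted p = 0.0645), without a filter on low values (adjusted p = 0.116), without mutant replicate 2 or 4 (0.0556 and 0.0627), and without Cre-carrying control replicate 2 or 3 (0.0509 and 0.052).

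Markers of other ovarian cells were read beside Igf2, and they differed in direction. Of 11 theca and stroma markers, 1 averaged over 0.5 RPKM and 8 under 0.1 RPKM. Their summed levels were 0.878 to 3.3 RPKM in mutant oocytes and 1.36 to 3.93 RPKM in controls. Cyp17a1, Col3a1 and Tcf21 were at 0 in every library, and the other markers of the list were not. Within that list Pdgfra stood at 0 to 0.0028 RPKM in mutant oocytes and 0.0665 to 0.295 RPKM in controls, and Cyp11a1 at 0 to 0.0577 RPKM in mutant oocytes and 0.09 to 0.81 RPKM in controls. Hsd3b1, the 1 marker of the list above 0.5 RPKM, averaged 1.79 ± 1.06 RPKM in mutant oocytes and 1.36 ± 0.996 RPKM in controls (limma adjusted p = 0.696), and Star 0.325 ± 0.405 RPKM in mutant oocytes and 0.158 ± 0.0963 RPKM in controls. The 6 endothelial markers summed to 11.1 to 21.1 RPKM in mutant oocytes and 17.8 to 30.4 RPKM in controls, with Cdh5 at 0 throughout. Most of each sum was Pecam1, with 13.7 ± 5.23 RPKM in mutant oocytes and 20.1 ± 4.35 RPKM in controls (limma adjusted p = 0.188). Tek was lower, with 0.543 ± 0.075 RPKM in mutant oocytes and 1.94 ± 0.469 RPKM in controls (limma adjusted p = 0.0176). Tie1 averaged 0.874 ± 0.278 RPKM in mutant oocytes and 1.54 ± 0.785 RPKM in controls (adjusted p = 0.399). Of the tested endothelial markers only Kdr had the opposite sign, with 1.15 ± 0.907 RPKM in mutant oocytes and 0.353 ± 0.162 RPKM in controls (adjusted p = 0.273). The 8 blood and immune markers summed to 11.6 to 24.1 RPKM in mutant oocytes and 11.4 to 20.6 RPKM in controls, most of it C1qb, with the 3 haemoglobin genes at 0. Their part in the Igf2 result was not tested. H19, which accompanies Igf2 in many fetal tissues, was listed at 0 in all 10 libraries, as was Dlk1, a transmembrane ligand related to Notch ligands.

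Of the other members, Igf2r, Airn, Grb10 and Plagl1 did not pass the test. Igf2r, the receptor that takes up IGF2 for degradation, was at 8.8, 8.23, 9.01 and 11.7 RPKM in mutant oocytes, against 11.8, 11.9, 13.3 and 10.6 RPKM in Cre-carrying controls and 11.4 and 6.75 RPKM in controls without Cre. Mutant replicates 1 to 3 were below all Cre-carrying controls, but 1 control without Cre was the lowest library of all. The log2 difference was -0.19 (95% interval -0.61 to 0.23, limma adjusted p = 0.64). Airn, the noncoding RNA that silences Igf2r in cis on the paternal copy in embryos, was at 0.102 to 5.61 RPKM in mutant oocytes and 0 to 1.74 RPKM in controls (log2 difference 0.80, adjusted p = 0.508). Its mutant libraries spanned the range from near the lowest to the highest of the 10.

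Grb10 encodes an adaptor that dampens insulin and IGF receptor signalling. Its values were 6.78, 4.52, 7.22 and 5.36 RPKM in mutant oocytes, against 8.31, 8.95, 5.3 and 8.77 RPKM in Cre-carrying controls and 6.85 and 11.3 RPKM in controls without Cre. The groups overlapped through Cre-carrying control replicate 3 and the lower of the controls without Cre. The means were 5.97 ± 1.25 RPKM in mutant oocytes and 8.24 ± 2.02 RPKM in controls (SD, n = 4 and 6), with a log2 difference of -0.42 (95% interval -0.90 to 0.06, limma adjusted p = 0.325). Plagl1, a zinc finger regulator of growth, was at 0.282 to 1.23 RPKM in mutant oocytes and 0.608 to 1.25 RPKM in controls (log2 difference -0.18, adjusted p = 0.789).

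Peg3 and Usp29 start back to back on chromosome 7, Peg3 on the minus strand at 6703892 to 6730431 and Usp29 on the plus strand at 6730578 to 6967219 (GRCm38). Peg3 encodes a zinc finger protein, and the shared start lies in a control region methylated in the oocyte. The Usp29 window is shown because it holds most of the start of both genes, with 263 of its 300 bases in common with the Peg3 window at chr7:6730370-6730669. It has 17 CG pairs, in capitals, and 31.4% of all 32851 RefSeq windows have as many or more (GRCm38.p6, from RefSeq, plus strand, 5′ to 3′).
Usp29 window at chr7:6730333-6730632: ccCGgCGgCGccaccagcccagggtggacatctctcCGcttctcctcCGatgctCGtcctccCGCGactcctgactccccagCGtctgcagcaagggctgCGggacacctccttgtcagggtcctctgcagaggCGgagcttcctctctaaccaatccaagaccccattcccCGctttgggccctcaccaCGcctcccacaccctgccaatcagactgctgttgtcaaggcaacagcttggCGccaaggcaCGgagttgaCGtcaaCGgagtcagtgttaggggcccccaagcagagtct

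Usp29 was at 2.41, 3.78, 1.45 and 2.32 RPKM in mutant oocytes, against 5.28, 5.73, 5.84 and 5.74 RPKM in Cre-carrying controls and 6.12 and 4.02 RPKM in controls without Cre. All mutant libraries were below all controls, and mutant replicate 2 came nearest. The means were 2.49 ± 0.964 RPKM in mutant oocytes and 5.46 ± 0.753 RPKM in controls (SD, n = 4 and 6), a log2 difference of -1.04 (SE 0.25, 95% interval -1.57 to -0.51, limma adjusted p = 0.0262). Both RefSeq records were lower without overlap. The call was lost in 7 of the 10 fits that leave out 1 library (mutant replicates 1, 3 and 4 and each Cre-carrying control, adjusted p between 0.0555 and 0.0759), with log2 differences from -1.23 to -0.85 over the 10 fits. It was also lost with a term for replicate number in the model (limma adjusted p = 0.079).

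Exons of Usp29 overlap those of Zim3, an imprinted gene annotated as an antisense transcript, on the opposite strand. The library kit is not stated to keep strand, so reads in the overlap cannot be assigned. Zim3 had 3.94, 6.65, 2.45 and 4.48 RPKM in mutant oocytes, against 8.61, 8.8, 8.18 and 9.35 RPKM in Cre-carrying controls and 6.99 and 7.16 RPKM in controls without Cre. All mutant values lay below all controls, and among mutant libraries replicate 2 was highest and replicate 3 lowest, as for Usp29. The log2 difference was -0.89 (limma adjusted p = 0.0416). Which share of the Zim3 reads comes from Usp29 was not tested.

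Peg3 itself did not pass the threshold against all controls. It stood at 2.11, 2.28, 2.49 and 1.07 RPKM in mutant oocytes, against 4.46, 3.82, 4.04 and 4.36 RPKM in Cre-carrying controls and 2.22 and 2.72 RPKM in controls without Cre. Mutant values were all below the Cre-carrying controls and overlapped the controls without Cre. Log2 differences were -0.73 against all controls (95% interval -1.33 to -0.13, limma adjusted p = 0.16), -0.95 against Cre-carrying controls (adjusted p = 0.0668) and -0.29 against controls without Cre (adjusted p = 0.647), comparisons that share the mutant libraries. Zim1, a zinc finger gene of the same cluster, was at 0.0152 to 0.951 RPKM in mutant oocytes and 0.485 to 1.61 RPKM in controls (log2 difference -0.63, adjusted p = 0.343). Zim2, the remaining gene of this cluster that was tested, averaged 3.67 ± 3.15 RPKM in mutant oocytes and 2.23 ± 1.89 RPKM in controls (adjusted p = 0.751), so 2 of the 5 genes tested in the cluster, Usp29 and Zim3, were lower, beside 2.22% of all genes tested. Because these genes overlap in exons, the count may hold the same reads under both names.

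**Figure D3:**
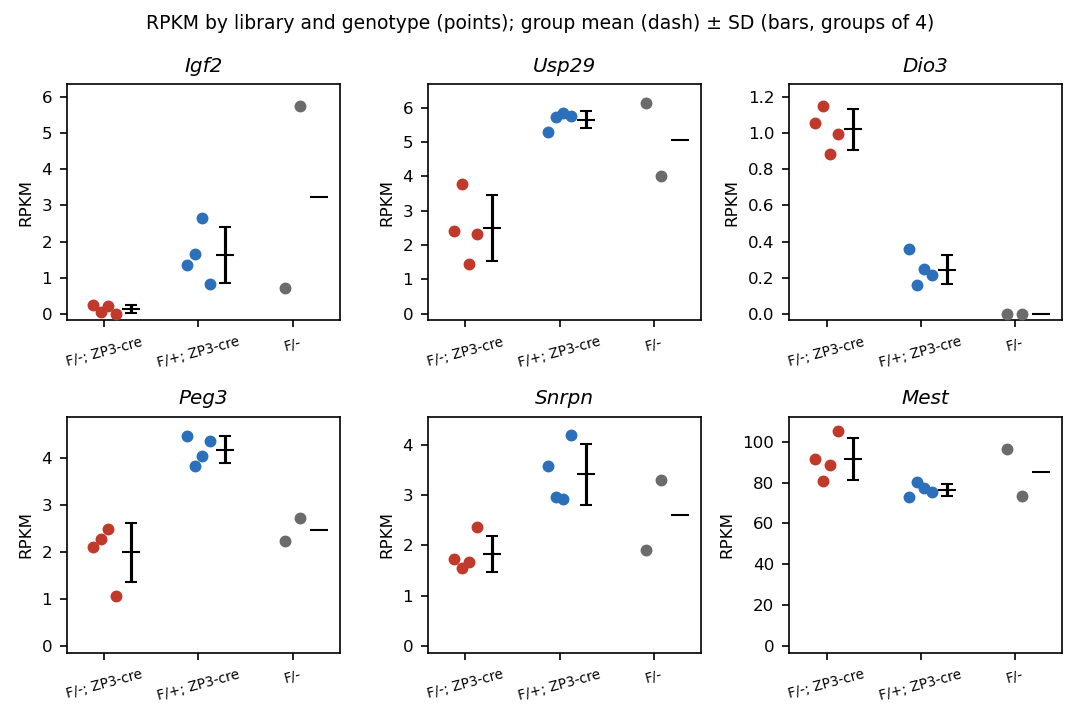
RPKM of 6 imprinted genes in each library (points; mutant oocytes at the left of each panel, then Cre-carrying controls, then controls without Cre), with the group mean as a dash and the SD as a bar for groups of 4. Dio3 is higher in all 4 mutant libraries than in any control, Igf2 and Usp29 are lower in all 4, and Peg3 in mutant oocytes overlaps the controls without Cre.

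Dio3 lies in the cluster of Dlk1, Meg3, Rian and Mirg, whose control region is methylated in sperm. It is an intronless gene on the plus strand of chromosome 12 at 110279068 to 110281097 (GRCm38). Its window is shown because this gene passed the threshold against all controls. It was below 0.5 RPKM in every control. The Dio3 window holds 25 CG pairs, in capitals, and 18.4% of all RefSeq windows have as many or more (GRCm38.p6, from RefSeq, plus strand, 5′ to 3′).
Dio3 window at chr12:110278980-110279279: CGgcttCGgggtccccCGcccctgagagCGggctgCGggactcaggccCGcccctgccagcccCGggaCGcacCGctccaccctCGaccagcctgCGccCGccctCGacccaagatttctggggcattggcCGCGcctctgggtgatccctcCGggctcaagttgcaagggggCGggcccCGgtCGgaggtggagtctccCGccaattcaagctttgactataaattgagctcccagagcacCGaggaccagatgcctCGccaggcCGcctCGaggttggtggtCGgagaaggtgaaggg

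Dio3 had 1.06, 1.15, 0.883 and 0.995 RPKM in mutant oocytes, against 0.357, 0.161, 0.246 and 0.217 RPKM in Cre-carrying controls, and was listed at 0 in both controls without Cre. The mutant libraries were close together and all above every control. The means were 1.02 ± 0.113 RPKM in mutant oocytes and 0.164 ± 0.142 RPKM in all controls (SD, n = 4 and 6), a log2 difference of 1.22 (SE 0.29, 95% interval 0.60 to 1.85, limma adjusted p = 0.0254). About 98 to 132 reads per mutant library and 0 to 45 per control library lie behind these values. Dio3 passed the filter on low values only through the mutant libraries, and without any 1 of them its mean fell below 0.5 RPKM and it was not tested. The call was also lost without Cre-carrying control replicate 2 or 4 (adjusted p = 0.0655 and 0.0583). A term for replicate number in the model removed it as well (limma adjusted p = 0.0896).

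The other genes of the cluster stayed below the detection limit. Rian, a noncoding RNA that hosts small nucleolar RNAs, had 0.246, 0.407, 0.302 and 0.191 RPKM in mutant oocytes, against 0.0636, 0.126, 0.104 and 0.077 RPKM in Cre-carrying controls and 0 in both controls without Cre. All mutant values were above all control values, with means of 0.287 ± 0.0925 RPKM in mutant oocytes and 0.0617 ± 0.0524 RPKM in controls. Fitted with no filter on low values, its log2 difference was 0.48 (limma adjusted p = 0.0452 over 24453 symbols). Meg3, the noncoding RNA at the start of the maternally expressed part of the cluster, was at 0.205 to 0.758 RPKM in mutant oocytes and 0.091 to 0.879 RPKM in controls, with overlap. Mirg, a microRNA host transcript, reached at most 0.0376 RPKM.

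Slc38a4 and Sgce were also below the limit on average and higher in some mutant libraries. They and Rian were chosen for values by library after those values were seen. Slc38a4, a neutral amino acid transporter marked by oocyte H3K27me3, had 1.51, 0.335, 0.21 and 0.0651 RPKM in mutant oocytes, against 0.00414, 0.0191, 0.0585 and 0.0221 RPKM in Cre-carrying controls and 0.00554 and 0 RPKM in controls without Cre. The groups did not overlap, although mutant replicate 4 was only just above the highest control (no filter, log2 difference 0.81, limma adjusted p = 0.33). Among all 7953 genes with a mean between 0 and 0.5 RPKM, mutant values lay above all controls in 0.742% and below all controls in 0.83%, and among the 19 imprinted genes below the limit this held for Rian and Slc38a4. Sgce, which encodes epsilon-sarcoglycan, had 2.04, 0.661, 0.821 and 0.0302 RPKM in mutant oocytes, against 0.0192, 0.283, 0.188 and 0.282 RPKM in Cre-carrying controls and 0 in both controls without Cre. Mutant replicate 4 lay within the control range (no filter, log2 difference 0.96, limma adjusted p = 0.372).

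**Figure D4:**
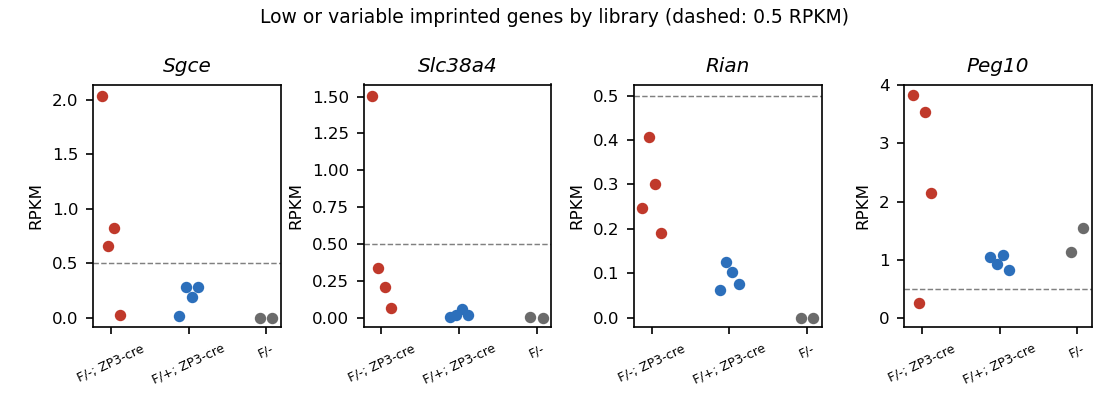
RPKM of Sgce, Slc38a4, Rian and Peg10 in each library (points; mutant oocytes at the left of each panel, then Cre-carrying controls, then controls without Cre; the dashed line marks 0.5 RPKM). Rian and Slc38a4 are above every control in all 4 mutant libraries, and Sgce and Peg10 in 3 of them.

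Peg10 shares its start region with Sgce and encodes a retrotransposon-derived protein needed for placental development. It was at 3.84, 0.248, 3.54 and 2.15 RPKM in mutant oocytes, against 1.05, 0.919, 1.08 and 0.827 RPKM in Cre-carrying controls and 1.14 and 1.54 RPKM in controls without Cre. Mutant replicates 1, 3 and 4 were above every control and replicate 2 was below every control. The log2 difference of 0.62 did not pass the threshold (95% interval -0.31 to 1.55, limma adjusted p = 0.466), but passed it without mutant replicate 2 (adjusted p = 0.0356) and with array weights (0.0234). Further along this neighbourhood lies Asb4, a substrate adaptor of a ubiquitin ligase, taken from a list of other imprinted genes. Asb4 was at 15.4, 11.9, 13.6 and 4.99 RPKM in mutant oocytes, against 2.29, 2.8, 2.53 and 3.73 RPKM in Cre-carrying controls and 5.4 and 2.81 RPKM in controls without Cre. Only mutant replicate 4 fell within the control range, and the log2 difference was 1.61 (limma adjusted p = 0.00804). Ppp1r9a, a gene of the same list between Peg10 and Asb4, had the opposite sign. It averaged 0.639 ± 0.0827 RPKM in mutant oocytes and 1.39 ± 0.275 RPKM in controls, without overlap (log2 difference -0.72, limma adjusted p = 0.141).

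**Figure D5:**
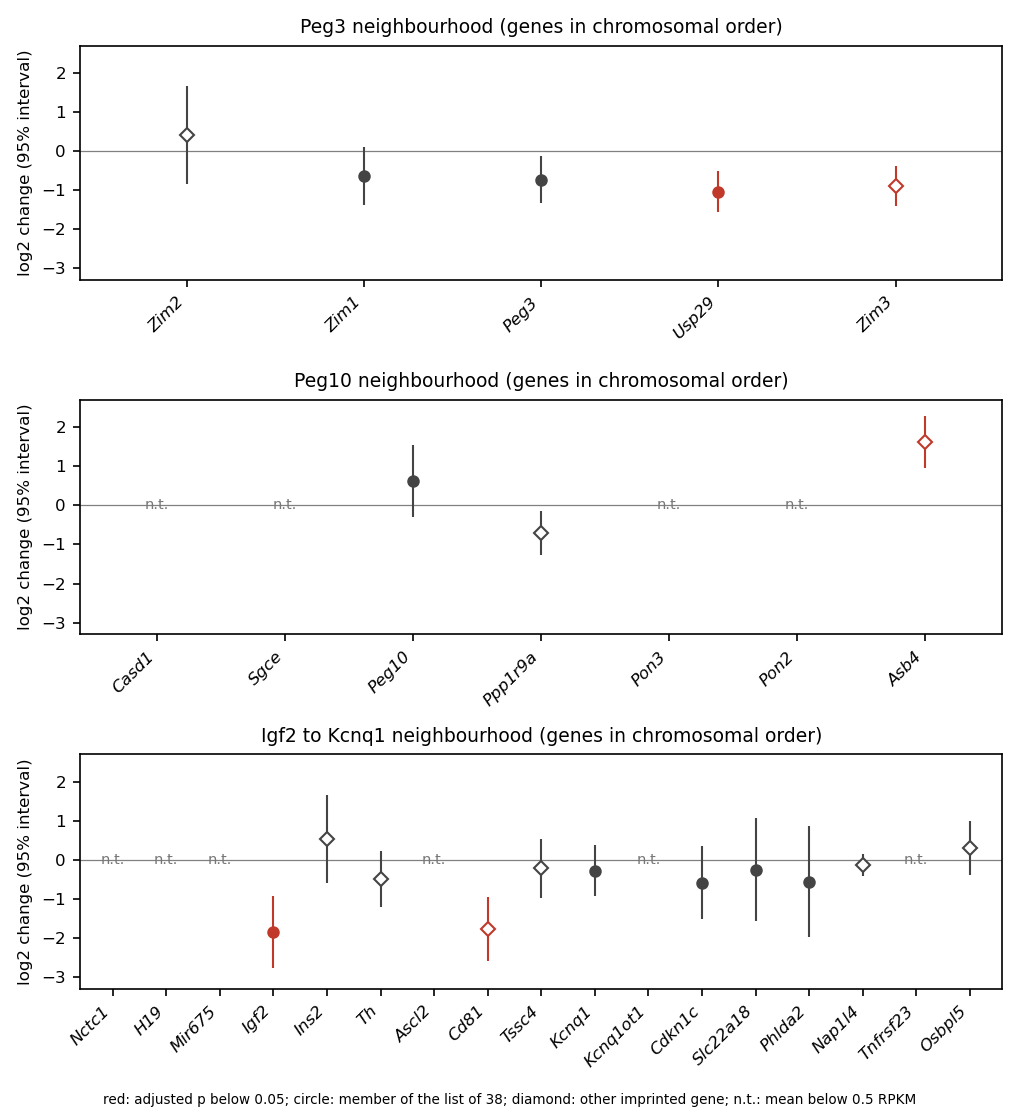
Log2 difference, mutant oocytes minus all controls, of the tested genes of imprinted neighbourhoods in their order along the chromosome (points; bars are 95% confidence intervals from limma), with the 38 imprinted genes as circles, other imprinted genes as diamonds, those past the threshold in red, and n.t. for genes with a mean below 0.5 RPKM. Within the Peg3 cluster Usp29 and Zim3 are lower, and in the neighbourhood of Peg10 only Asb4 passed the threshold, while in the third panel Igf2 and Cd81 are lower.

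Mest, an alpha/beta hydrolase family gene expressed from the paternal copy in offspring, was the most abundant of the 38. It had 91.4, 80.5, 88.5 and 105 RPKM in mutant oocytes, against 72.9, 80.1, 77.5 and 75.3 RPKM in Cre-carrying controls and 96.6 and 73.6 RPKM in controls without Cre. All mutant values were above the Cre-carrying controls, and a control without Cre had the second highest of the 10 values. The means were 91.4 ± 10.3 RPKM in mutant oocytes and 79.3 ± 8.87 RPKM in controls (SD, n = 4 and 6), a log2 difference of 0.20 (95% interval -0.03 to 0.44, limma adjusted p = 0.328). Over all libraries 394 symbols had a higher mean.

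In the Prader-Willi and Angelman region, Ube3a and Snrpn were detected and Ndn, Magel2 and Mkrn3 were not. Ube3a, the ubiquitin ligase lost in Angelman syndrome, was at 13, 11.8, 10.6 and 13.7 RPKM in mutant oocytes, against 9.63, 10.5, 12.1 and 11.5 RPKM in Cre-carrying controls and 12.7 and 8.37 RPKM in controls without Cre. The groups overlapped (log2 difference 0.18, 95% interval -0.17 to 0.53, limma adjusted p = 0.58). Snrpn, which encodes a spliceosomal protein and shares exons with Snurf, was at 1.55 to 2.36 RPKM in mutant oocytes and 1.91 to 4.2 RPKM in controls. Mutant values were below all 4 Cre-carrying controls and overlapped 1 control without Cre (log2 difference -0.63, unadjusted p = 0.0279, limma adjusted p = 0.185). Ndn and Magel2, members of the MAGE family, and Mkrn3, a makorin ring finger gene, reached at most 0.0967, 0.0311 and 0.0128 RPKM.

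Of the 6 genes of the Kcnq1 domain, 4 were detected and none passed the test. Kcnq1, a potassium channel subunit, was at 5.93, 2.25, 3.51 and 5.46 RPKM in mutant oocytes, against 5.07, 6.79, 4.75 and 5.18 RPKM in Cre-carrying controls and 6.78 and 2.68 RPKM in controls without Cre. Low values occurred in both mutant oocytes and controls without Cre (log2 difference -0.28, 95% interval -0.93 to 0.36, limma adjusted p = 0.653). Phlda2, which restrains placental growth, was at 4.43, 1.09, 2.76 and 0.671 RPKM in mutant oocytes, against 5.36, 3.4, 8.35 and 3.68 RPKM in Cre-carrying controls and 3.48 and 0 RPKM in controls without Cre. Its lowest value was in a control, and its interval was wide (log2 difference -0.56, 95% interval -1.98 to 0.86, limma adjusted p = 0.686).

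Cdkn1c, an inhibitor of cyclin-dependent kinases, was at 0.878 to 6.31 RPKM in mutant oocytes and 2.2 to 6.55 RPKM in controls (log2 difference -0.59, limma adjusted p = 0.497). Slc22a18, an organic cation transporter-like gene, was at 0 to 5.41 RPKM in mutant oocytes and 0.839 to 2.19 RPKM in controls (log2 difference -0.25, adjusted p = 0.861). Its mutant libraries fell on both sides of the whole control range. The antisense noncoding RNA Kcnq1ot1, which silences this domain in cis, reached at most 0.0424 RPKM, and Ascl2, a transcription factor of the placenta, at most 0.376 RPKM.

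Inpp5f, a phosphoinositide phosphatase, was at 5.36, 9.46, 2.6 and 2.52 RPKM in mutant oocytes, against 2.86, 3.74, 3.94 and 7.49 RPKM in Cre-carrying controls and 6.36 and 17.4 RPKM in controls without Cre. The groups overlapped throughout (log2 difference -0.38, 95% interval -1.35 to 0.59, limma adjusted p = 0.69). Impact, a regulator of the kinase GCN2, was at 0.87 to 6.47 RPKM in mutant oocytes and 0.247 to 1.61 RPKM in controls, and its mutant mean rested on replicate 4 (log2 difference 0.63, adjusted p = 0.478). Of the remaining genes below the limit, Zrsr1, a splicing factor gene, Nnat, which encodes neuronatin, and Nap1l5, a nucleosome assembly protein-like gene, reached 1.06, 0.767 and 0.621 RPKM in their highest library, which was a control for each. Zdbf2, the antisense noncoding RNA Nespas at Gnas, the Polycomb group gene Sfmbt2 and the noncoding RNA Peg13 reached at most 0.371, 0.244, 0.137 and 0.0155 RPKM. Of the 19 genes below the limit, 13 stayed under 0.5 RPKM in every library.

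The spread between mice was compared with that of all genes tested. The median SD of log2(RPKM + 0.5) was 0.495 among mutant oocytes for the 19 detected members, beside 0.388 for all genes tested. It was 0.209 beside 0.191 among Cre-carrying controls and 0.479 beside 0.385 among controls without Cre. An SD above 1 was found among mutant oocytes for 5 of 19 members, Cdkn1c, Peg10, Slc22a18, Impact and Airn, beside 7.59% of all genes tested, among Cre-carrying controls for 0 of 19, beside 0.212%, and among controls without Cre for 4 of 19, Phlda2, Impact, Igf2 and Airn, beside 14.8%. Members lie lower than genes in general, and the part of level or counting error in this spread was not tested.

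Against each control genotype alone, which share the mutant libraries, fewer members passed. Against Cre-carrying controls, 1 member of 19 passed, beside 4.89% of all genes tested (2.76% higher and 2.13% lower). Usp29 was lower by a log2 difference of -1.10 (limma adjusted p = 0.037), while Igf2 at -1.71 (adjusted p = 0.0602) and Dio3 at 1.03 (adjusted p = 0.0564) missed the threshold. Against controls without Cre, 1 member passed, beside 4.84% of all genes tested (3.25% higher and 1.59% lower). That member was Dio3, listed at 0 in both of those controls and tested only because its mutant libraries carried it past the filter, so the count is a description. Igf2 at -2.16 (adjusted p = 0.0529) and Usp29 at -0.93 (adjusted p = 0.127) missed the threshold. Between Cre-carrying controls and controls without Cre, 0 members passed by limma, beside 0.0706% of all genes tested. At an unadjusted p below 0.05 stood 2 members, beside 14% of all genes tested, Phlda2 with a log2 difference of 1.93 and Inpp5f with -1.22.

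Other genes recorded as imprinted, 49 of 51 listed symbols in the table and 25 tested, included 1 that was higher (Asb4) and 3 that were lower (Zim3, Cobl and Cd81), beside 3.1% higher and 2.22% lower among all genes tested. These counts are a description, because the list was chosen with earlier results of these data known. The median log2 difference of the list was 0.03, beside 0.03 over all genes tested. Cobl, an actin nucleator beside Grb10, averaged 0.851 ± 0.637 RPKM in mutant oocytes and 5.23 ± 1.84 RPKM in controls (log2 difference -2.13, limma adjusted p = 0.00357). Cd81, a tetraspanin gene of the Kcnq1 domain, averaged 0.333 ± 0.385 RPKM in mutant oocytes and 2.36 ± 1.39 RPKM in controls (log2 difference -1.76, adjusted p = 0.0161). Like Igf2, Cd81 passed the filter on low values only through the control libraries, so its call is a description. Cobl and Cd81 lay lower in every mutant library than in any control, whereas Grb10 and Kcnq1 overlapped between groups.

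RefSeq start windows were matched for 30 of the 38 genes, 44 windows in all. They held a median of 12 CG pairs, beside 7 over all 32851 windows. The ZFP57 core TGCCGC was searched on both strands and found in 11 of 44 windows (25%), beside 11.6% of all windows. By detection, 7 of 24 windows of detected genes (29.2%) and 4 of 20 of the others (20%) held it. None of the Usp29, Peg3 and Dio3 windows held it, and 1 of the 4 Igf2 windows did, on the strand opposite to the gene. A match here is a description of letters, not a binding site. TGCCGC itself holds a CG pair, and the shares were not matched for the number of CG pairs. The Mest windows at chr6:30737800-30738099 and chr6:30737803-30738102 overlap, and each was counted as holding the core.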

How the data were processed

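RNA of 10 pools of GV oocytes was amplified as SPIA cDNA with a NuGen Ovation kit before sequencing, per the labels' protocols. Reads were converted with bcl2fastq 1.8.3 and aligned with STAR to mm10, per the submitters' processing notes; neither the counting tool nor its handling of multiply mapped reads is stated there. The authors deposited RPKM per RefSeq transcript, not counts, so the depth was estimated from steps in low values (68.7 to 72.1% of them lay within 0.1 of a whole read), too few to recover counts. The kit is not stated to keep strand, and 15 of 38 members have exons that overlap a gene on the opposite strand.

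The record of highest mean RPKM stood for each symbol. Values were tested as log2(RPKM + 0.5) with limma 3.58.1 (R 4.3.3) on the 11338 symbols with a mean of at least 0.5 RPKM, in a model of mutant oocytes against all controls and one of 3 groups, with Benjamini-Hochberg adjustment and a threshold of 0.05. A log2 difference on this scale understates the change of low genes. The script was tested on simulated data. Members and lists were chosen with earlier results of these data known. Values in every library are given for members past the threshold or without overlap and for the 8 of highest mean level; Peg3, Zim3, Asb4, Peg10, Rian, Slc38a4 and Sgce were added after their values were seen. No column was left out. Other pseudocounts, filters, scalings, weights, record choices, a replicate block and fits without each library were tried. Positions are from GENCODE M21 and start windows from RefSeq, both GRCm38. P-values from limma rest on the spread between mice, 1 pool each, moderated by a trend fitted over all genes tested. In the model against all controls, that spread includes any difference between the control genotypes.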

Additional observations from a re-analysis of the deposited data

Results flagged for a closer look

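Of 38 checks that asked whether the highest or lowest of 4 libraries of a group stood apart from the rest, 3 met the 95% limit of Dixon's test (0.829 of the range for 4 samples), which chance alone reaches in about 1 of 20 groups. Impact in mutant oocytes had its highest value, 6.47 RPKM, in replicate 4, with a gap of 0.863 of the range. Grb10 in Cre-carrying controls had its lowest value, 5.3 RPKM, in replicate 3 (gap 0.854), the 1 Cre-carrying control within the mutant range. Slc22a18 in Cre-carrying controls had its highest value, 1.71 RPKM, in replicate 2 (gap 0.839).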

How the results depend on the processing

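With 4 mutant and 6 control libraries, none of the 3 calls reversed. Of members without a call, Cdkn1c changed sign with array weights, Plagl1 without mutant replicate 4, and Slc22a18 in 4 fits. The Igf2 difference lay between -3.14 (pseudocount 0.1 RPKM) and -0.87 (pseudocount 2 RPKM) and that of Dio3 between 0.48 and 2.31. The count of lower members (2) became 1 with a pseudocount of 2 RPKM, without a filter, with a filter at 2 RPKM and under the replicate block, and 4 with array weights (Igf2, Peg3, Snrpn and Usp29), and lay between 0 and 2 when 1 library was left out. The count of higher members (1) became 2 without a filter (Dio3 and Rian) and with array weights (Dio3 and Peg10), and 0 with a filter at 2 RPKM, which Dio3 did not reach, and under the replicate block, and lay between 0 and 1 when 1 library was left out. Against Cre-carrying controls the count (1) became 2 with a pseudocount of 0.1 RPKM and with records summed or averaged, 3 with median centring, quantile normalization or no trend, 6 with array weights and 0 under the block, with 0 to 4 when 1 library was left out. Against controls without Cre the count (1) became 2 with a pseudocount of 0.1 RPKM, no filter, median centring and records summed or averaged, 0 with a filter at 2 RPKM, array weights and the block, with 0 to 2 when 1 library was left out. Between the controls it was 0 to 1, the 1 being Phlda2 without replicate 1 of the controls without Cre. Leaving that library out leaves a lone sample assumed to vary like the other groups. The detected number (19) was 10 when 0.5 RPKM was asked of every library, 16 at 1 RPKM, 18 in the control mean, 23 with records summed and 28 at 0.1 RPKM, and 18 to 19 when 1 library was left out. The log2 difference of Setdb1 lay between -3.38 and -2.94 when 1 library was left out (exact p 0.0079 to 0.012). The cause of the other changes was not tested. Over all genes 352 were higher and 252 lower, 58.3% higher, beside 47.2% with median centring and 48.9% with quantile normalization, and 236 higher and 140 lower under the block. Under the block the calls of Usp29 (adjusted p = 0.0793) and Dio3 (0.0896) were lost and that of Igf2 was kept (0.0406). Same-numbered libraries had r from -0.0461 to 0.0308 over 8 pairs, and differently numbered ones from -0.0809 to 0.0809. Deviations were taken from group means, and controls without Cre hold only 2 libraries. These r values therefore cannot show whether the numbers mark a shared batch. Depth limits the genes below 0.5 RPKM most.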

Other observations

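Among listed regulators of imprints, leaving out the targeted gene Setdb1, 32 of 35 were tested, and 2 were higher and 2 lower in mutant oocytes, beside 3.1% higher and 2.22% lower among all genes tested. This list was chosen with earlier results of these data known, so the counts are a description. Setd2, the enzyme that places H3K36me3 over transcribed genes, averaged 43.7 ± 2.4 RPKM in mutant oocytes and 29.1 ± 2.7 RPKM in controls (log2 difference 0.58, limma adjusted p = 0.00766). Vezf1, a zinc finger factor, averaged 36.4 ± 13 RPKM in mutant oocytes and 19.1 ± 3.04 RPKM in controls (log2 difference 0.86, adjusted p = 0.023). Dnmt1, the maintenance DNA methyltransferase, averaged 351 ± 22.8 RPKM in mutant oocytes and 514 ± 32.7 RPKM in controls (log2 difference -0.55, adjusted p = 0.000808), and Hells, a chromatin remodeller needed for DNA methylation, 10.6 ± 1.37 RPKM in mutant oocytes and 18.3 ± 3.6 RPKM in controls (log2 difference -0.74, adjusted p = 0.0307). Zfp57, which binds methylated imprint control regions, averaged 796 ± 22.1 RPKM in mutant oocytes and 765 ± 59.9 RPKM in controls (log2 difference 0.06, adjusted p = 0.712).

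Ipw, a noncoding RNA of the Prader-Willi region, was listed at 2.72 RPKM in mutant replicate 4 and at 0 in all others, and Kcnk9, a potassium channel gene near Peg13, at 1.79 RPKM in the same library and 0 elsewhere. Impact was highest in that library too.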
